A study of Homo sapiens with 17 samples.

Results

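The replication-dependent histone genes encode the bulk of the nucleosome: the linker histones H1 and the core histones H2A, H2B, H3 and H4. Members were taken by current gene symbol, as the protein-coding genes H1-1 to H1-5 and those whose symbol starts with H2AC, H2BC, H3C or H4C followed by a number. The rule gave 68 genes. Of these, 34 had an identifier among the 63677 genes of the count files, namely 5 of 5 H1, 8 of 17 H2A, 10 of 18 H2B, 5 of 13 H3 and 6 of 15 H4 genes. The other 34 were not analysed here.

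The libraries came from total RNA of 2 established human lymphoma lines, Karpas-422 and WSU-DLCL2, both of the diffuse large B cell type. There were 15 libraries in 5 groups of 3: untreated Karpas-422, Karpas-422 given A-485 for 48 h, untreated WSU-DLCL2, WSU-DLCL2 given A-485 for 48 h, and 3 WSU-DLCL2 clones labelled BCL11A knockout. A-485 is a small molecule that blocks the catalytic site of p300 and CBP, enzymes that acetylate histones, and BCL11A is a zinc-finger transcriptional repressor of the B cell lineage. How BCL11A was disrupted, whether the replicates were separate cultures, and any unedited clone were not given in the sources used here, so p-values measure the spread between these samples, which may be technical. Untreated WSU-DLCL2 replicate 3 was titled untreated, while its treatment entry named A-485, and it is given here both in and out of its group.

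Canonical histone genes are transcribed mainly in S phase, from clusters in which H2A and H2B genes often lie head to head. Their messages carry no introns and usually end in a conserved stem-loop in place of a poly(A) tail. The stem-loop is bound by SLBP, and cleavage after it needs the U7 small nuclear ribonucleoprotein. Some members, among them H1-2, H2AC6, H2BC4, H2BC5, H2BC12 and H2BC21, are also known as polyadenylated messages in differentiating or non-dividing cells. Poly(A) selection keeps the second form and loses the first, and the sources used here did not say how the RNA was selected.

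The stem-loop is shown first because it is the feature that sets this class of message apart. The histone stem-loop consensus was searched for in GENCODE 29 transcripts on the transcript strand, with the bases of the 2 arms required to pair. It was found in 17 of the 34 members in the files, and in 40 of 19684 protein-coding genes in all (0.203%), of which 28 were genes of the symbol rule. Among the 17 members there were 4 cores of 16 bases, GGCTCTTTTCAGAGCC in 10 genes, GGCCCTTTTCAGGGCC in 3, and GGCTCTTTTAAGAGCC and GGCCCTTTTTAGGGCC in 2 each. In the following 26-base stretches the capitals mark the core:
H2BC5: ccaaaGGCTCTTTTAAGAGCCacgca
H2BC4: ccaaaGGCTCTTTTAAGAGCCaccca
H2BC15: acaacGGCTCTTTTCAGAGCCaccta
H2BC21: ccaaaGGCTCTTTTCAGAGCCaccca
H2AC6: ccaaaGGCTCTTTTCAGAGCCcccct
H4C8: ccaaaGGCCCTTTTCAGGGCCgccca
H4C16: caaaaGGCCCTTTTCAGGGCCcccaa
The annotated models run on past the loop to very different extents. The model of H2BC5 that holds the loop continued for 39 bases after it, while those of H2AC6 continued for 1114 to 1128 bases and that of H2BC21 for 1729 bases. The only model of H2BC12 was 381 bases long and ended without a loop, so no loop could be looked for beyond it. The same limit holds for other short models without a hit, such as those of H1-2 (642 bases), H2AC20 (390 bases) and H3C4 (411 bases). A model without a loop therefore does not show that the gene lacks one.

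Promoters are shown for the 4 members that passed the test in Karpas-422. RefSeq promoters (GRCh38.p14) were matched by symbol for 32 of the 34 members. The 250 bases before the start were searched on both strands for the octamer ATTTGCAT, for CCAAT and for TATAAA. The octamer, a motif of POU-domain factors, was in 13 of the 32 members and in 1.66% of all 27305 promoters. By family it was in 6 of 8 H2A, 6 of 10 H2B, 1 of 4 H3, 0 of 5 H1 and 0 of 5 H4 promoters. H2AC7 and H3C4 were given the same stretch, chr6:26199294-26199413 on the minus strand. The H3 promoter with the octamer is therefore also 1 of the 6 H2A ones, and this stretch enters the CCAAT count for both genes. The searched windows of head-to-head partners also overlap. The same octamer was counted for both H2BC4 and H2AC6, and likewise for H2BC11 and H2AC11, H2BC21 and H2AC20, and H2BC1 and H2AC1. The 13 members therefore do not hold 13 separate octamers, and the H2A and H2B counts repeat these sites. Some CCAAT and TATAAA matches are shared between partners in the same way. CCAAT was in 27 of 32 members, 0 of 5 H4 genes among them, and in 33.0% of all promoters. TATAAA was in 21 of 32 members and in 11.1% of all promoters. The stretches below are the 120 bases before each start, read in the direction of transcription, with capitals for any of the 3 motifs or its reverse complement:
H2BC12, which fell, chr6:27146859-27146978, minus strand: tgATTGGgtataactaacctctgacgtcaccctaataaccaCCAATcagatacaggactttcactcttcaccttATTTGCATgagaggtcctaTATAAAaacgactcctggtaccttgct
H2BC15, which fell, chr6:27838449-27838568, plus strand: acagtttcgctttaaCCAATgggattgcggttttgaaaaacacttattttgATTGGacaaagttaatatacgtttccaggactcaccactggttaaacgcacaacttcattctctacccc
H2BC5, which rose, chr6:26158001-26158120, plus strand: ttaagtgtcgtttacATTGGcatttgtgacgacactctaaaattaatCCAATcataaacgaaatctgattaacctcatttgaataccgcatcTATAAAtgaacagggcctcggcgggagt
H4C16, which rose, chr12:14771132-14771251, minus strand: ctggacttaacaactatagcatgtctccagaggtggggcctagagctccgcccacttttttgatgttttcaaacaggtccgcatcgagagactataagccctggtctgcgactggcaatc
In H2BC12 the octamer began 46 bases and TATAAA 27 bases before the start, and in H2BC5 TATAAA began 28 bases before it with no octamer in the searched window. H2BC15 held CCAAT alone in its stretch, and H4C16 held none of the 3 there. These matches describe the letters only.

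Depth and library type differed between groups. Counts assigned to genes were 6949770 to 8897051 per library in Karpas-422, 6689320 to 7086106 in A-485-treated WSU-DLCL2, 21233752 to 37286727 in untreated WSU-DLCL2 and 29669098 to 34904926 in the clones. In the 9 shallow libraries 43.0% to 55.5% of reads had no unique alignment and ACTB stood at 3.20 to 31.9 CPM (counts per 1000000 counts in genes). In the 6 deep libraries the same measures were 7.73% to 9.24% and 3432 to 9994 CPM. A-485 and untreated WSU-DLCL2 therefore lie in libraries of different types, and the drug and the library type cannot be told apart there. Of 10 B cell markers, 9 or 10 were above 1 CPM in every group, with IGHM at 0 in every library but untreated WSU-DLCL2 replicate 3, which had 64 counts.

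Few of the 34 genes gave usable counts. There were 9 at 0 in all 15 libraries (H1-1, H2AC1, H2AC7, H2BC1, H2BC26, H3C14, H3C15, H4C14 and H4C15), and 13 stayed under 3 counts in every library. At least 10 counts in some library were reached by 15 members: 2 H1, 3 H2A, 7 H2B and 3 H4 genes, and 0 of the 5 H3 genes. A group's 3 libraries together put the level that 0 counts allow, taken as 3 counts, at 0.119 CPM for A-485-treated and 0.131 CPM for untreated Karpas-422. The same limit was 0.146 CPM for A-485-treated WSU-DLCL2, 0.0306 CPM for the clones and 0.0324 CPM for untreated WSU-DLCL2. All such limits cover counting error only, since reads without molecular identifiers are not independent molecules.

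Copies that resemble each other held few counts, with exceptions. For each gene the share of its 50-base windows found in no other GENCODE 29 gene was computed. That share had a median of 2.82% over the 9 members at 0 (range 0% to 100%) and of 95.4% over the 15 members with at least 10 counts (range 25.9% to 100%). H1-1, H2AC1 and H2BC1 were at 0 counts with 100% of their windows unique. H3C4, with 0% unique windows, still had 28 counts over the 15 libraries, all in deep ones. H3C4 and H2AC7 overlap another GENCODE 29 gene on the same strand, which is not among the genes counted. Windows shared with that gene were taken as not unique. How much of the low share of H3C4 and H2AC7 came from this overlap was not measured. H2BC12, at 25.9%, had by far the most counts of any member, 8672 in all. Reads without a unique alignment were held apart from the gene counts, in a summary line of each library. The values of H2BC12 and H3C4 may therefore lack reads shared with other copies. Whether they also include reads of other copies was not given.

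**Figure D1:**
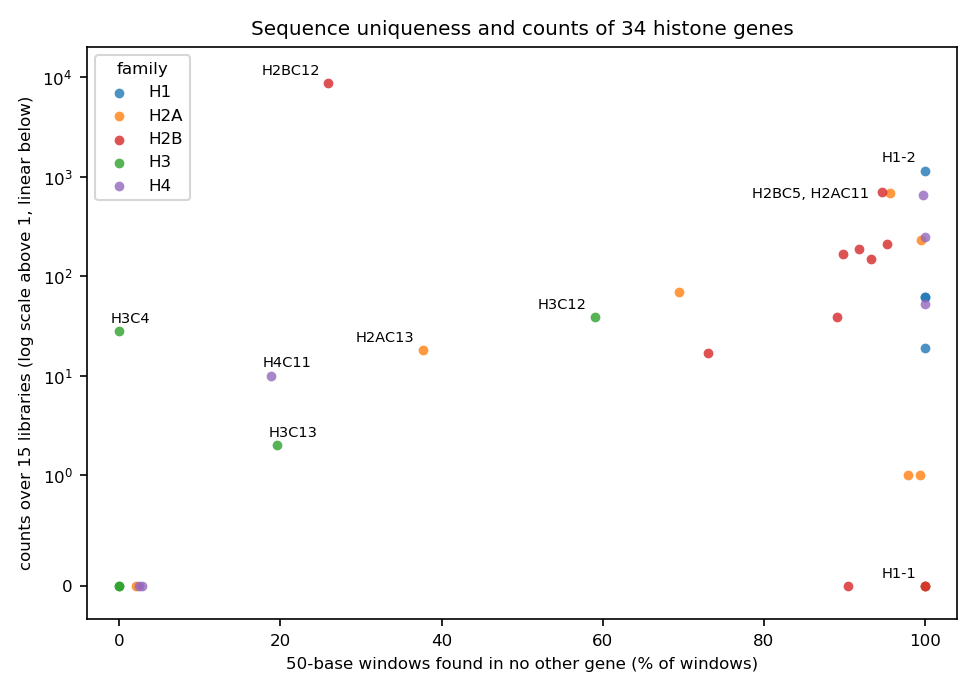
Each point is 1 of the 34 histone genes, coloured by family. The x axis is the percentage of its 50-base windows found in no other gene and the y axis its counts summed over 15 libraries, on a log scale above 1. Genes with almost no unique window lie at or near 0 counts, apart from H3C4, while H2BC12 has the most counts at 25.9% unique windows.

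H2BC12, which encodes an H2B protein, held the largest share of the class's counts in every group, most of all in Karpas-422. It held 82.2% of the 5063 member counts in untreated and 67.9% of 4629 in A-485-treated Karpas-422. In WSU-DLCL2 it held 40.6% of 1670 counts in untreated cells, 30.3% of 1279 in the clones and 36.4% of 828 after A-485. Per kilobase of annotated exon, H2BC12 stood at 475 ± 17.8 CPM in untreated Karpas-422 (SD, n = 3), H1-2, a linker histone, at 24.6 ± 1.06 and H2BC5 at 8.61 ± 0.203. The annotated exon lengths come from another annotation than the authors' files, and several models lack untranslated ends, which limits such comparisons between genes.

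**Figure D2:**
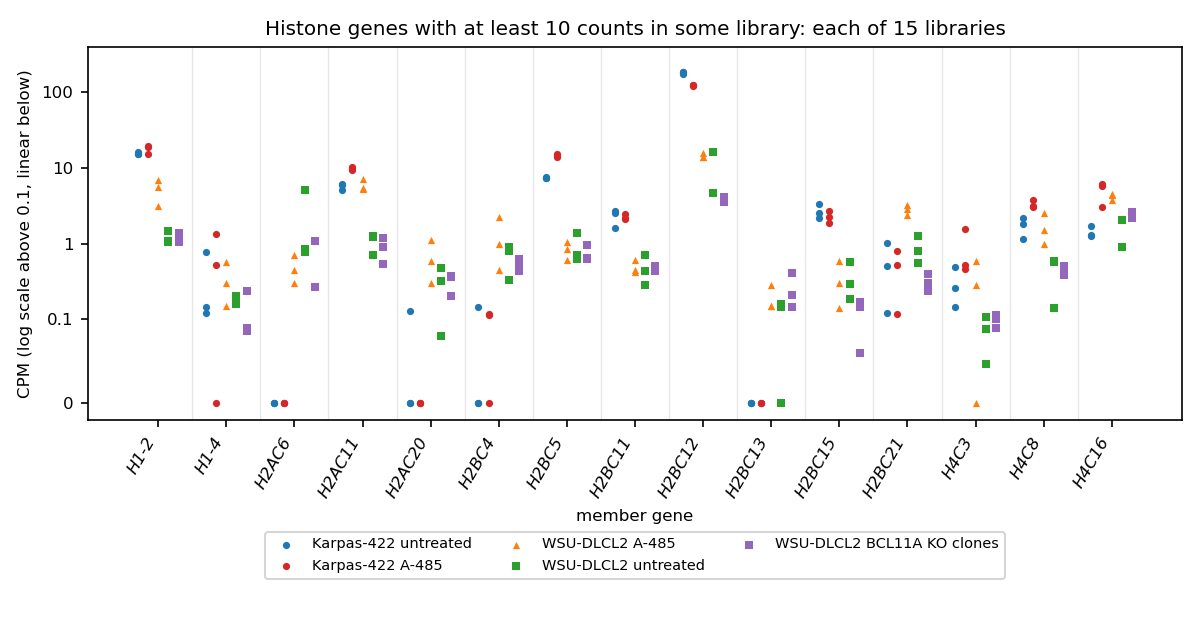
Level of each of the 15 histone genes with at least 10 counts in some library, in every library, in CPM on a log scale above 0.1 and a linear scale below. Points are libraries, coloured by group, 3 per group; circles and triangles are the shallow libraries and squares the deep ones. H2BC12 lies above 100 CPM in all 6 Karpas-422 libraries, and H2AC6 lies at 0 in all 6.

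Some members differed in level between the lines in the 3 groups of shallow libraries, and others were read in both. These libraries were alike in low depth and low ACTB. They differed in reads not aligned, at 14.1% to 14.6% in A-485-treated WSU-DLCL2 and 2.51% to 2.86% in Karpas-422. H2AC6, an H2A gene, was at 0 in all 6 Karpas-422 libraries and had 2, 5 and 3 counts in A-485-treated WSU-DLCL2. H2BC4, its head-to-head neighbour, had 0 or 1 count in each Karpas-422 library and 15, 7 and 3 counts there. H2BC21 had 1 to 7 counts per Karpas-422 library and 16, 23 and 19 counts in those WSU-DLCL2 libraries. The order was the other way for H2BC5, with 108, 137 and 123 counts in A-485-treated Karpas-422 and 4, 6 and 7 counts in A-485-treated WSU-DLCL2. H2BC12 likewise stood at 124 ± 2.88 CPM in the former and 14.7 ± 0.992 CPM in the latter (SD, n = 3 each). Other members lay closer together, with H4C16 at 5.03 ± 1.70 and 4.25 ± 0.384 CPM, H2AC11 at 9.76 ± 0.526 and 5.88 ± 1.02 CPM and H4C8 at 3.30 ± 0.369 and 1.67 ± 0.787 CPM, in the same order of groups. These members were chosen after their values were seen, and the differences between lines were not tested.

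Partners in head-to-head pairs did not always have equal counts. Of 12 pairs of members whose divergent starts lay within 500 bases, 6 had both genes in the files. H2AC7 and H3C4 were given the same start, so each was paired with H2BC7 at 223 bases, and that pair of starts is counted again in the 12. H2BC11 and H2AC11, with 248 bases between their starts, had 210 and 685 counts over all libraries. H2BC4 and H2AC6, 246 bases apart, had 147 and 232, and H2BC21 and H2AC20, 236 bases apart, had 189 and 69. The other pairs had fewer counts, with H2BC13 and H2AC13 at 39 and 18, H2AC25 and H2BC26 at 1 and 0, and H2AC1 and H2BC1 both at 0. In Karpas-422 H2BC11 had 13 to 20 counts in each library while H2AC11 had 40 to 92. The models of these genes differ in length, so the counts of partners are not levels.

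The effect of A-485 on histone genes was tested in Karpas-422, where both groups are shallow libraries. Their read assignment still differed without overlap. Reads with no unique alignment were 48.8% to 49.0% with A-485 and 54.5% to 55.5% without. Reads in no annotated gene were 8.25% to 8.91% and 3.61% to 4.54%, and ACTB stood at 16.4 to 18.7 and 3.20 to 6.23 CPM. The part of this difference in the histone values was not tested. The tested members did not move as a block: H4C16 and H2BC5 rose, H2BC12 and H2BC15 fell, and the 4 others (H1-2, H2AC11, H2BC11 and H4C8) did not pass. No H3 gene was among them. These 8 were the members of 34 that passed the filter on low counts, which depends on the counts in the groups compared. Of all 11846 genes tested, 71.4% were called at an adjusted p under 0.05, 37.6% higher and 33.7% lower, so 2 higher and 2 lower of 8 members is not a share above the background. The median log2 fold change was 0.063 over the 8 members and 0.081 over all genes tested. Log2 fold changes are A-485 against untreated, ± SE, after TMM scaling (edgeR's scaling, which assumes that most genes keep their level), and adjusted p-values here come from the quasi-likelihood test of edgeR, with the Benjamini-Hochberg method applied over all genes tested.

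H2BC12 stood at 121, 124 and 127 CPM in A-485 replicates 1 to 3 and at 186, 184 and 173 CPM in the untreated replicates. All treated libraries were lower than all untreated ones. In bulk RNA, fewer cells in S phase and less histone message per cell cannot be told apart. The TMM-scaled level of H2BC12 was 108 ± 2.79 CPM with A-485 and 209 ± 7.99 CPM without (SD, n = 3 each), and it fell by 0.95 ± 0.055 on the log2 scale (edgeR adjusted p = 2.19e-09). Because H2BC12 held most of the class's counts, the summed TMM-scaled level of all members followed it, at 159 ± 5.66 CPM with A-485 against 254 ± 9.50 CPM without. Leaving H2BC12 out, the other 33 members summed to 49.9, 56.9 and 46.6 TMM-scaled CPM with A-485 and 42.6, 47.1 and 46.5 without, and the groups overlapped. With library sizes alone as scaling the same sums were 58.7 ± 5.91 and 39.3 ± 0.597 CPM, with no overlap, so their order depends on the scaling.

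H4C16, an H4 gene that lies on chromosome 12 apart from the large clusters, had 24, 52 and 53 counts with A-485 and 14, 10 and 9 without. The groups did not overlap, and A-485 replicate 1 was the lowest of the treated libraries. Its level rose by 1.41 ± 0.32 on the log2 scale (edgeR adjusted p = 0.00121), from 1.64 ± 0.212 to 4.39 ± 1.49 TMM-scaled CPM (SD, n = 3 each). H2BC5, an H2B gene, had 108, 137 and 123 counts with A-485 and 60, 60 and 52 without, again with no overlap. It rose by 0.55 ± 0.14 (edgeR adjusted p = 0.00316), from 8.67 ± 0.524 to 12.7 ± 0.741 TMM-scaled CPM. H2BC5 overlaps LARP1P1, a pseudogene with 17 counts over all libraries, and an antisense gene.

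H2BC15 rested on few counts, 21, 20 and 16 with A-485 and 27, 20 and 15 without. TMM-scaled levels did not overlap, at 1.98 ± 0.357 CPM against 3.07 ± 0.551 CPM (SD, n = 3 each), and the gene fell by 0.66 ± 0.26 on the log2 scale (edgeR adjusted p = 0.0364). The call was lost with DESeq2 (adjusted p = 0.148), with library sizes alone as scaling (edgeR adjusted p = 0.408), without the filter (edgeR adjusted p = 0.0612) and with the replicate number as a block. It was also lost on leaving out A-485 replicate 2 or 3 or untreated replicate 1 or 2. H2BC15 also shares annotated sequence with the models of H2AC15 and H2AC16, and the strand of the libraries was not given, so reads of these genes cannot be told apart.

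The members that did not pass spanned both directions. H2AC11 had 75, 92 and 80 counts with A-485 and 51, 40 and 42 without, a log2 difference of 0.35 ± 0.16 (edgeR adjusted p = 0.0619). H4C8 had 29, 27 and 27 counts with A-485 and 15, 17 and 8 without, a log2 difference of 0.51 ± 0.27 (edgeR adjusted p = 0.110). TMM-scaled levels of both did not overlap between the groups. H1-2 had 146, 176 and 130 counts against 125, 121 and 115, a log2 difference of -0.22 ± 0.13 (edgeR adjusted p = 0.152), with overlap. H2BC11 had 19 counts in each treated library and 13, 20 and 19 without, a log2 difference of -0.41 ± 0.28 (edgeR adjusted p = 0.207). It passed, at -0.66 (edgeR adjusted p = 0.0468), only when untreated replicate 1 was left out. In all, TMM-scaled groups did not overlap for 4 members higher and 2 lower with A-485, beside 74.7% of all genes tested, 39.8% higher and 34.9% lower.

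**Figure D3:**
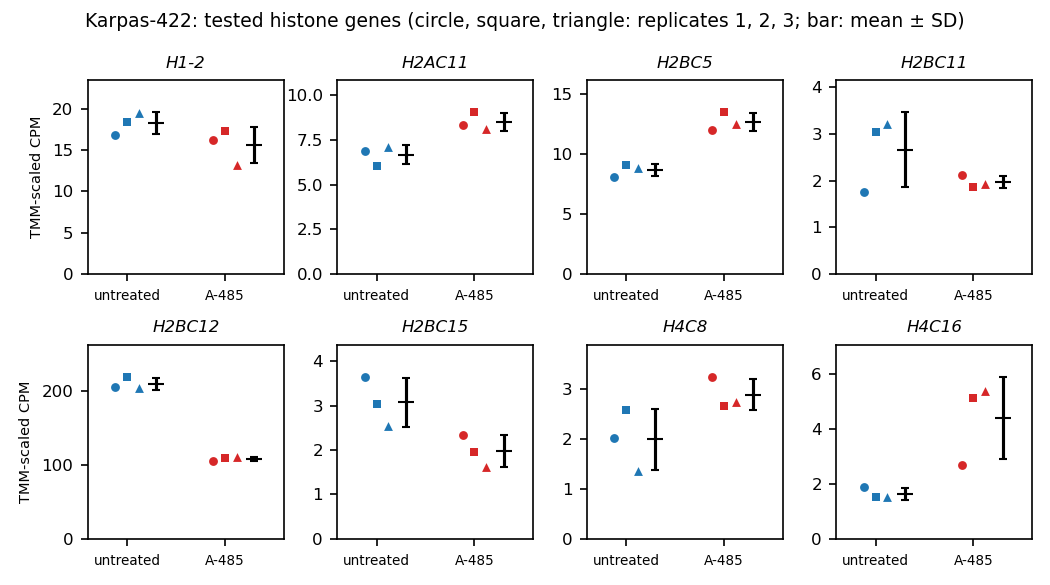
TMM-scaled CPM of the 8 tested histone genes in Karpas-422, each axis starting at 0. Circles, squares and triangles are replicates 1, 2 and 3, untreated in blue and A-485 in red, and the bar beside each group is the mean ± SD of 3 libraries. H2BC12 and H2BC15 are lower and H2BC5 and H4C16 higher in all 3 treated libraries.

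Part of these results depended on the scaling. Scaling by library size alone moved the median of all genes up by 0.41 on the log2 scale relative to TMM, and the split of called genes from 4459 higher and 3998 lower to 6465 higher and 2290 lower. Under it 4 members were called higher, H2AC11 (0.75, edgeR adjusted p = 0.000941) and H4C8 (0.91, edgeR adjusted p = 0.00854) besides H4C16 and H2BC5, and H2BC12 was the only member called lower (-0.54, edgeR adjusted p = 7.42e-07). The log2 difference of H1-2 turned to 0.18. Ratios between members within a library do not depend on the scaling, but a ratio to H2BC12, which itself fell, is higher with A-485 for any gene that fell less. Counts of H2BC5 were 11.7% ± 0.597 of those of H2BC12 with A-485 and 4.15% ± 0.189 without (SD, n = 3 each), and those of H4C16 were 4.03% ± 1.29 and 0.788% ± 0.118. H2AC11 came to 7.86% ± 0.493 and 3.21% ± 0.374, H4C8 to 2.66% ± 0.354 and 0.945% ± 0.262, and H1-2 to 14.4% ± 2.18 and 8.73% ± 0.719. For these 5 genes and H2BC11 each treated library had a higher ratio than each untreated one, while the ratios of H2BC15 overlapped. The higher ratios of H1-2 and H2BC11 go with log2 differences below 0 and show no rise of these genes.

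The untested members were too rare to order. H2BC18 had 4, 3 and 1 counts with A-485 and 0 in each untreated library, 1.83-fold higher after TMM scaling when the untreated group is set to 3 counts in all. The 8 counts with A-485 carry counting error of their own, so this fold is not a lower bound. Without the filter on low counts edgeR called it higher (edgeR adjusted p = 0.0385). H4C3 had 4, 14 and 4 counts with A-485 and 4, 2 and 1 without, H1-4 had 4, 12 and 0 against 1, 6 and 1, and H1-5 had 2, 9 and 2 against 1, 4 and 1. In H4C3, H1-4 and H1-5 the high value with A-485 came from replicate 2 alone. The highest H3 gene, H3C12, had 6, 8 and 2 counts against 2, 4 and 3.

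Genes that act on histone messages and proteins moved in both directions in Karpas-422, at shares to be read beside the 71.4% of all genes called, 37.6% higher and 33.7% lower. Of 22 tested genes of histone 3′ processing and the histone locus body, 4 rose, 13 fell and 5 did not pass (77.3% called), with a median log2 fold change of -0.37. LSM10, a subunit of the U7 ribonucleoprotein, fell by 1.18 ± 0.066 (edgeR adjusted p = 1.66e-09), and YY1, a zinc-finger transcription factor, fell by 0.96 ± 0.051 (edgeR adjusted p = 8.89e-10). NCBP1, the large cap-binding subunit, fell by 0.66 ± 0.064 (edgeR adjusted p = 5.67e-07). NPAT, the coactivator at the histone locus body, fell by only 0.18 ± 0.056 (edgeR adjusted p = 0.0106). That call turned to a rise of 0.23 with library sizes alone (edgeR adjusted p = 0.00131) and was lost without A-485 replicate 1 (edgeR adjusted p = 0.0520). SLBP, which binds the stem-loop, had 1, 0 and 2 counts with A-485 and 1, 0 and 2 without, so it could not be tested in these libraries.

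Of 15 genes of histone message decay, 7 rose, 3 fell and 5 did not pass (66.7% called, beside 71.4% of all genes), with a median of 0.23. TUT4, which adds uridines to the message end, rose by 1.09 ± 0.11 (edgeR adjusted p = 5.53e-07). EXOSC10, a nuclear exosome nuclease, had 41, 47 and 63 counts with A-485 and 6, 3 and 1 without and rose by 3.34 ± 0.37 (edgeR adjusted p = 2.38e-06). DHX9, an RNA helicase, fell by 1.18 ± 0.093 (edgeR adjusted p = 1.12e-06). Among 24 tested histone chaperones and importers 5 rose, 12 fell and 7 did not pass (70.8% called), with a median of -0.20. ASF1A, a chaperone of H3 and H4, fell by 1.48 ± 0.047 (edgeR adjusted p = 7.29e-12), from 1530 ± 10.7 to 547 ± 12.5 TMM-scaled CPM (SD, n = 3 each). MCM2, a replicative helicase subunit that also binds histones, fell by 1.26 ± 0.058 and SSRP1, a subunit of the FACT chaperone, fell by 0.99 ± 0.062.

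Of 8 tested replication-independent and variant histones 4 rose, 3 fell and 1 did not pass (87.5% called, beside 71.4% of all genes), with a median of 0.58. MACROH2A1 rose by 1.63 ± 0.083 (edgeR adjusted p = 1.72e-09), while the linker variant H1-10 fell by 1.24 ± 0.090 (edgeR adjusted p = 2.63e-08) and H3-3B, an H3.3 gene, fell by 0.64 ± 0.048 (edgeR adjusted p = 3.92e-08). Genes of S phase split into 11 that rose, 12 that fell and 7 of 30 that did not pass (76.7% called), with a median of -0.28, and FEN1, CDC6 and RFC3 fell by 1.08 ± 0.049, 1.12 ± 0.053 and 0.86 ± 0.047. Genes of G2 and mitosis split into 6, 4 and 7 of 17 (58.8% called) with a median of -0.0068. CDK1, the mitotic kinase, rose by 1.93 ± 0.11 (edgeR adjusted p = 3.10e-09), CCNA2, cyclin A2, fell by 0.89 ± 0.056 (edgeR adjusted p = 5.14e-09), and BUB1B, a spindle checkpoint kinase, fell by 0.61 ± 0.13 (edgeR adjusted p = 0.000908). The BUB1B call was lost with library sizes alone (-0.20, edgeR adjusted p = 0.215). Of the 6 members known as polyadenylated messages 3 were tested, and H2BC5 rose, H2BC12 fell and H1-2 did not pass.

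Among the drug's targets, the log2 difference was 0.10 for EP300 (edgeR adjusted p = 0.498; 0.52 and adjusted p = 0.00608 with library sizes alone), and CREBBP rose by 0.40 ± 0.063 (edgeR adjusted p = 5.63e-05). Markers of other cell types differed between the same libraries. The 10 epithelial or fibroblast markers summed to 186 to 203 CPM with A-485 and 383 to 431 CPM without, nearly all from DCN, with 7 of 10 at 0 in both groups, EPCAM and COL1A1 among them. The 9 T and NK cell markers in the files summed to 551 to 591 and 638 to 682 CPM, mostly from CD3G, with CD2, CD8A and GNLY at 0. The 9 myeloid markers summed to 43.9 to 49.3 and 32.4 to 40.1 CPM, and the 8 erythroid ones to 0 to 0.225 and 0 CPM. Their part in the histone results was not tested.

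The BCL11A knockout clones were compared with untreated WSU-DLCL2, all in deep libraries. The targeted gene came first as a check of the labels. The TMM-scaled CPM of BCL11A were 59.0, 68.3 and 53.0 for the clones in order, while the untreated replicates had 46.9, 46.3 and 72.3 CPM, a log2 difference of 0.13 ± 0.21 (edgeR adjusted p = 0.915). Its RNA was not lower in the clones, so these counts do not check the labels. Without replicate 3 the difference was 0.37 ± 0.12 (edgeR unadjusted p = 0.0183, adjusted p = 0.177), with every clone above both untreated replicates. A disrupted gene can still be transcribed.

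No histone gene passed the test between clones and untreated cells. The members tested were 11 of 34, and edgeR called 0 of them and 0% of all 16152 genes tested. At an unadjusted p under 0.05 edgeR found 1 member and 1117 genes. DESeq2 called 0 members among 60 genes higher and 255 lower, and limma-voom 0 members among 0 higher and 2 lower. The median log2 fold change, clones against untreated, was -0.24 over the 11 members and -0.011 over all genes tested. TMM-scaled groups did not overlap for 1 member higher in the clones (H4C16) and 2 lower (H2BC12 and H2BC21), beside 16.5% of all genes tested, 7.96% higher and 8.51% lower.

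H2BC21 was the member with the smallest p. It had 7, 14 and 10 counts in clones 1 to 3 and 19, 30 and 27 in untreated replicates 1 to 3, with no overlap, a log2 difference of -1.45 ± 0.42 (edgeR unadjusted p = 0.0110, adjusted p = 0.489). H2BC12 had 107, 143 and 138 counts in the clones and 161, 174 and 343 in untreated cells, a log2 difference of -1.09 ± 0.52 (edgeR adjusted p = 0.768). Untreated replicate 3 was the shallowest of the 6 libraries and had the highest H2BC12 count. H2AC6 had 8, 38 and 9 counts against 29, 29 and 109, a log2 difference of -2.01 ± 0.95 (edgeR adjusted p = 0.767), and clone 2 lay above untreated replicates 1 and 2 in CPM. H4C16 had 65, 83 and 88 counts against 70, 76 and 19, a log2 difference of 0.51 ± 0.38 (edgeR adjusted p = 0.853).

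The other tested members gave no direction beyond their errors. H2BC4 had 13, 17 and 21 counts in the clones against 31, 30 and 7, a log2 difference of -0.42 ± 0.44. The differences were -0.24 ± 0.40 for H2BC5, -0.26 ± 0.40 for H2AC11, 0.16 ± 0.63 for H2AC20, -0.063 ± 0.40 for H2BC11, 0.038 ± 0.28 for H1-2 and 0.0072 ± 0.53 for H4C8. For H2BC5, H2AC11, H2AC20, H2BC11, H1-2 and H4C8 the SE was larger than the difference.

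**Figure D4:**
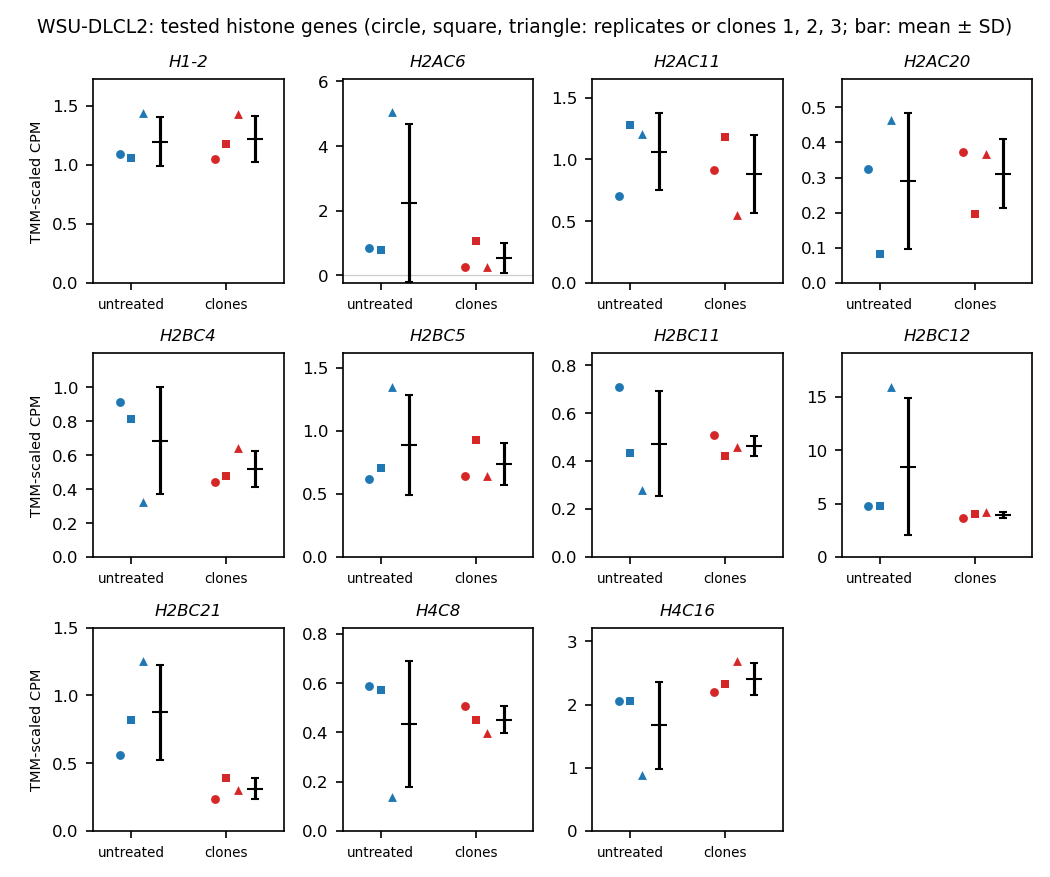
TMM-scaled CPM of the 11 tested histone genes in WSU-DLCL2, untreated in blue and BCL11A knockout clones in red; circles, squares and triangles are replicates or clones 1, 2 and 3. The bar beside each group is the mean ± SD of 3 libraries and runs below 0 for untreated H2AC6. Untreated replicate 3, the blue triangle, stands apart from replicates 1 and 2 in most panels, highest for H2AC6 and H2BC12 and lowest for H4C8 and H4C16.

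Untreated replicate 3 stood apart from the other untreated libraries in the histone genes, in both directions. Where a pair of libraries gave a gene 20 counts or more, the mean chi-square of the counts was 2.66 per gene between replicates 1 and 2, and 201 and 212 between replicate 3 and the other two. The clones also differed from each other, at 40.9 for clones 1 and 2, 20.3 for 1 and 3 and 34.1 for 2 and 3. Of 13 members compared in CPM, untreated replicate 3 lay above both other replicates in 7, below both in 5 and between them in 1. H2AC6 was at 5.13 CPM in replicate 3 and at 0.852 and 0.778 CPM in replicates 1 and 2, 6.30 times their mean. H2BC12 was at 16.2 CPM against 4.73 and 4.67 CPM, 3.44 times their mean. H4C8 was at 0.141 CPM against 0.587 and 0.563 CPM, and H4C16 at 0.895 CPM against 2.06 and 2.04 CPM, which is lower by 4.07 and 2.29 times. For comparison, A-485-treated WSU-DLCL2 had H2BC12 at 15.8, 14.1 and 14.1 CPM, H2AC6 at 0.299, 0.706 and 0.447 CPM and H4C16 at 4.48, 3.81 and 4.47 CPM, in libraries of the other type.

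Without replicate 3 the comparison called more genes and still no histone gene. Of 16607 genes tested 2.11% were called by edgeR, 0.422% higher and 1.69% lower, and 0 of 11 members. H2BC21 kept most of its difference, at -1.12 ± 0.35 (edgeR unadjusted p = 0.0181, adjusted p = 0.176). H2BC4, with its low replicate 3 gone, came to -0.73 ± 0.28 (edgeR unadjusted p = 0.0400, adjusted p = 0.240). The differences of H2BC12 and H2AC6 shrank to -0.26 ± 0.16 (edgeR adjusted p = 0.436) and -0.58 ± 0.62 (edgeR adjusted p = 0.660), those of H2BC5 and H4C8 changed sign to 0.16 ± 0.29 and -0.36 ± 0.28, and that of H4C16 was 0.22 ± 0.20. TMM-scaled groups did not overlap for 1 member higher and 4 lower in the clones, beside 40.3% of all genes tested, 19.9% higher and 20.3% lower. With 1 untreated library fewer, groups separate more easily, so these numbers cannot be set beside those with replicate 3.

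**Figure D5:**
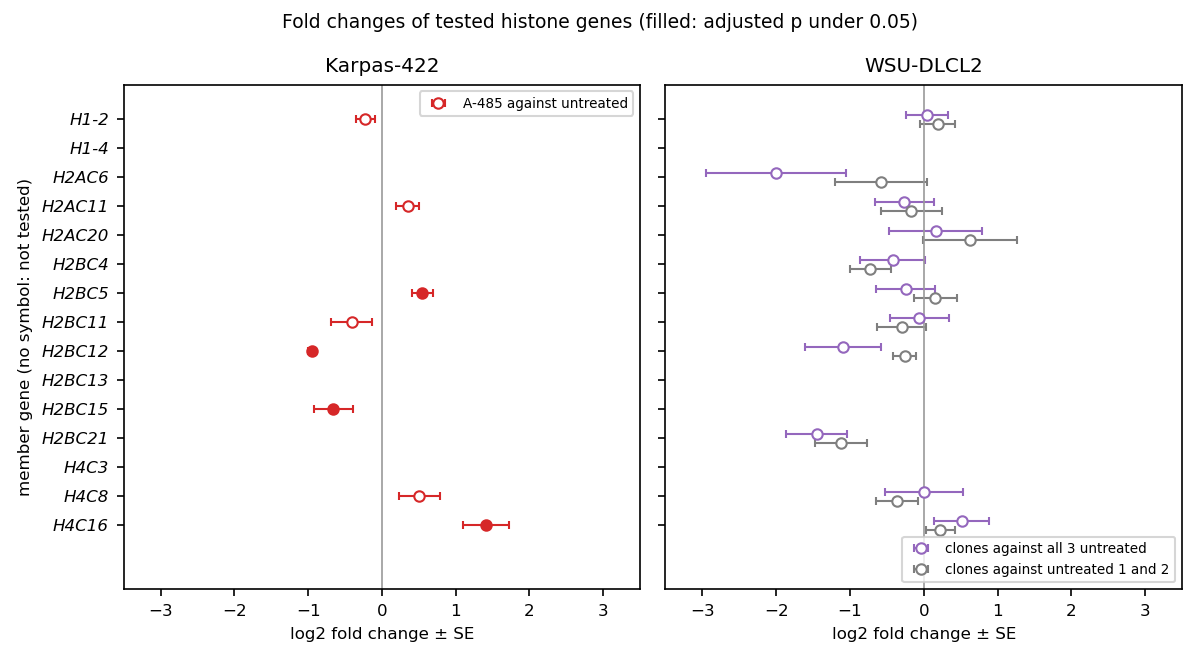
Log2 fold change ± SE of each tested histone gene, with A-485 against untreated Karpas-422 on the left and BCL11A knockout clones against untreated WSU-DLCL2 on the right, with all 3 untreated libraries (purple) or replicates 1 and 2 only (grey). Filled symbols have an edgeR adjusted p under 0.05, and a gene without a symbol was not tested. On the left 2 genes are filled on each side of 0; on the right none is filled, and H2BC12 and H2AC6 move towards 0 without replicate 3.

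None of the gene lists around the histone genes had a called member in the clones. With all untreated libraries, 0 of 24 genes of 3′ processing and the locus body, 0 of 15 of decay, 0 of 26 chaperones and importers and 0 of 11 variant histones were called by edgeR, with 1, 0, 1 and 1 at an unadjusted p under 0.05. SLBP, measured well here, stood at 234 ± 36.9 TMM-scaled CPM in the clones and 195 ± 43.4 CPM in untreated cells (SD, n = 3 each), and NPAT at 65.7 ± 4.93 and 66.0 ± 5.42 CPM. The 30 genes of S phase had a median log2 difference of 0.44 with replicate 3 and 0.0014 without it, and the 17 genes of G2 and mitosis 0.13 and -0.19, with 0 called in either. The 6 members known as polyadenylated messages had a median of -0.76 with replicate 3 and -0.42 without it. Summed member levels were 13.0 ± 0.637 CPM in the clones and 19.7 ± 8.96 CPM in untreated cells (SD, n = 3 each), and the untreated libraries ranged from 14.3 to 30.0 CPM.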

How the data were processed

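The authors deposited whole-number read counts per gene, 1 file per library, which were used as raw counts; per the submitters' processing notes STAR 2.5.3a, RSEM (no version) and GRCh37 (hg19) were used. The sources used here name no counting program, annotation, kit or strand. The 5 summary lines at each file's end stayed out of library sizes and tests. Symbols matched 52526 of 63677 identifiers; 0.862% of counts fell in the 11151 unmatched. GENCODE 29 (GRCh38) gave gene types, transcripts and lengths, and RefSeq (GRCh38.p14) the promoters. The 17 sample records shared 15 files, since 3 runs of untreated WSU-DLCL2 replicate 3 share 1 file, used as 1 library. All 15 were kept apart, and the lowest chi-square per gene between replicates was 1.20.

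Each comparison was fitted on its own groups in R 4.3.3 with edgeR 4.0.16, using filterByExpr, TMM scaling, two-sided tests from robust quasi-likelihood fits; p-values were adjusted by Benjamini-Hochberg over all genes tested, with a threshold of 0.05. SEs were taken as log2 fold change over the root of F. The fits were tested on simulated data. DESeq2 1.42.0, limma-voom (limma 3.58.1), 2 other scalings, no filter, a replicate block and leaving out each library were alternatives. Named genes were called members, the 2 highest tested members per family, tested H1 genes, 3 genes of smallest p per list, and SLBP, NPAT, BCL11A, EP300 and CREBBP. All other tested members, and in the text members with few counts, were named as well. In the clones, list genes of smallest p with no call were fitted and mostly left unnamed. Members and lists were chosen with earlier results of these data known. The result of 1 listed gene is not reported here.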

Additional observations from a re-analysis of the deposited data

How the results depend on the processing

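In Karpas-422, H2BC12, H2BC5 and H4C16 kept direction and call in every alternative run, with log2 fold changes on leaving out 1 library of -0.98 to -0.92, 0.50 to 0.58 and 1.24 to 1.65. The members called were 4 higher and 1 lower, and all genes called lower 2290, with library sizes alone; 1 member was called lower without the filter, with DESeq2 and with the replicate block, in which H2BC15 lost its call (-0.63, edgeR adjusted p = 0.0544), and 1 to 2 on leaving out 1 library. The summed member level, TMM-scaled, was 159 CPM with A-485 and 254 CPM without. Directions turned for H1-2 (0.18) and NPAT (0.23) with library sizes alone and for EP300 (-0.045) without untreated replicate 1. Deviations of same-numbered replicates correlated at 0.019, 0.077 and -0.048 in Karpas-422 and at 0.093, 0.050 and 0.25 in WSU-DLCL2, and not every library correlated best with its own number, so the numbers were not taken as pairs; the replicate block moved Karpas-422 calls to 4346 higher and 3904 lower and gave 0 calls for the clones. For the clones, all genes called were 1 higher and 19 lower without the filter, 60 and 255 with DESeq2, 2 lower with limma-voom, and 0 to 70 higher and 0 to 281 lower on leaving out 1 library, the highest without untreated replicate 3. Among uncalled genes of that comparison, H2BC11 turned to 0.012 with limma-voom and to 0.013 with the replicate block. On leaving out 1 library H2BC11 ranged from -0.30 to 0.34, H4C8 from -0.36 to 0.26 (-0.082 without clone 1), H2AC20 from -0.31 to 0.62, H2BC5 from -0.45 to 0.16, H1-2 from -0.090 to 0.19 (-0.022 and -0.034 without untreated replicates 1 and 2), NPAT from -0.069 to 0.048 (0.039 without clone 2 and 0.012 without untreated replicate 1), CDC20 from -0.11 to 0.41 and CREBBP from -0.26 to 0.25. The causes were not tested. Of 360 values for 30 genes in Karpas-422, 343 kept direction and side of the threshold, 10 lost the call, 4 gained it and 3 turned; of 408 values for 34 genes in the clones, 393 kept both and 15 turned. Members at 0 or a few counts are limited by depth, and genes without a unique stretch by the counting as well.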
